A study of Homo sapiens with 6 samples.

Results

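The TGF-beta and BMP pathway genes described here are the ligands, receptors, antagonists, SMAD proteins and direct regulators of the TGF-beta family, chosen by gene symbol from the expression table of H1299 cells. The symbols covered TGFB1 to TGFB3, the BMPs, GDFs, inhibins, activin and TGF-beta receptors, SMADs, ID1 to ID4, LTBPs, follistatins, gremlins, NOG, CHRD, BAMBI, SKI, SKIL, SMURF1, SMURF2, LEFTY1, LEFTY2, NODAL, TGFBI and TGFB1I1. They matched 74 of the 26255 genes listed, by a rule on symbols. The set was chosen with earlier results of these data known, so its shares beside all genes are no independent comparison. BMP1 carries the family's name but is a metalloprotease, and it was counted on its own.

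H1299 is an established human lung cancer cell line that grows in RPMI-1640 medium with serum. Messenger RNA was measured by RNA-seq in 3 libraries of cells carrying a control shRNA (shControl) and 3 libraries of cells carrying an shRNA against Ephexin1 (shEphexin1), the guanine nucleotide exchange factor encoded by NGEF. Both groups carried a pSilencer2.1-U6 vector and had been grown out under drug selection as stable cells, so every library came from selected cells. The deposited column names of the shEphexin1 libraries share a single stem, nothing in the labels says that the libraries came from separate clones or cultures, and the p-values below therefore measure only the spread between these libraries.

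TGF-beta family ligands are secreted dimers that bring together type I and type II receptor serine kinases. TGF-beta and activin receptors phosphorylate SMAD2 and SMAD3, BMP receptors phosphorylate SMAD1, SMAD5 and SMAD9, and both branches share SMAD4 as the partner that enters the nucleus with them. SMAD6 and SMAD7 are induced by the pathway and inhibit it, ID genes are classical BMP targets, and in carcinoma cells the pathway is known both for growth arrest and for driving a mesenchymal state.

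Values are FPKM, that is fragments scaled to transcript length and library size, and the depth is unknown. The scaling left differences between libraries. Summed FPKM ran from 561335 to 651441 in shControl and from 516079 to 587222 in shEphexin1. The knockdown target NGEF measured 13.3, 11.7 and 16.4 FPKM with the control shRNA against 9.81, 8.25 and 10.5 FPKM with the Ephexin1 shRNA. The shEphexin1 mean was 68.9% of the shControl mean and the groups did not overlap, but the log2 difference of -0.53 missed the threshold (limma, adjusted p = 0.103). The study's methods state that its stable knockdown clones were verified by western blot, a measure of protein that is not part of these data. The difference passed with a term for replicate 2, with replicates 1 and 3 alone, with GC and length correction and with the neighbourhood correction described below (limma, adjusted p = 0.00572, 0.0338, 0.00408 and 0.0301). Of the 20 alternative settings for NGEF, 6 passed and 14 did not, with adjusted p up to 0.268 (limma). The term for replicate 2 rests on a pattern seen in these same data, given next. Replicate 2 of each group stood apart: gene deviations from the mean ran against GC content in both replicate 2 libraries (Spearman rho -0.644 and -0.699 over genes, which are no independent replicates) and with it in the other 4 libraries (0.313 to 0.608). Of the mesenchymal markers VIM, CDH2 and FN1, 3 of 3 averaged at least 1 FPKM, and 0 of 4 lung epithelial markers did. NKX2-1, which defines lung epithelium, was listed at 0 in every library. The summed FPKM of the 5 epithelial markers, almost all of it KRT8 and KRT18, ranged from 72.8 to 118 in shControl and from 39.2 to 58.4 in shEphexin1. The epithelial keratins KRT8 and KRT18 fell (limma, adjusted p = 0.0304 and 0.0439). EPCAM lay the other way at a very low level, with means of 0.0409 and 0.173 FPKM and no overlap (log2 fold change 0.97, limma adjusted p = 0.175), and CDH1 was listed at 0 in every library. The part of these shifts in the results below was not tested. In bulk RNA, fewer cells of a type and less RNA per cell cannot be told apart.

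Of the 74 members, 51 reached 0.1 FPKM in at least 3 libraries and were tested, and 23 did not. Means of at least 1 FPKM in either group were found for 39 members and means of at least 10 FPKM for 23. Among the 23 members left out, 8 were listed at 0 in all 6 libraries (INHBA, LEFTY2, BMP5, BMP10, BMP15, GDF2, GDF3 and GDF10), and the highest single value of the other 15 was 0.425 FPKM, for INHA. INHBA encodes the activin A subunit, and the only activin or inhibin subunit that was tested, INHBE, had shControl values of 0.0686, 0.233 and 0.0884 FPKM and shEphexin1 values of 0.263, 0.262 and 0.388 FPKM.

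Fold changes are differences of log2(FPKM + 0.1) between the group means, which understates the change of low genes. By the study's own thresholds, 0.025 or less for the adjusted p together with at least 2-fold, 3 of 51 members were called (5.88%), beside 1.89% of the 16020 genes tested. TGFB3 rose, and BMP2 and FSTL1 fell. When the adjusted p had to reach 0.05 at any fold, 7 of 51 members passed (13.7%), beside 7.01% of all genes tested. Those that rose were TGFB3, FSTL3, SMAD3 and SMAD7, 4 of 51 members beside 2.69% of all genes. Those that fell were BMP2, FSTL1 and LTBP1, 3 of 51 beside 4.32% of all genes. The groups' FPKM did not overlap for 26 members, 16 of them above and 10 below shControl, which is 51.0% of the members tested beside 28.3% of all genes tested. The median log2 fold change was 0.13 over the members and -0.0093 over all genes tested. With 3 libraries against 3, an exact two-sided permutation test of a single gene cannot go below p = 0.1, so such a test was not used to call members.

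**Figure D1:**
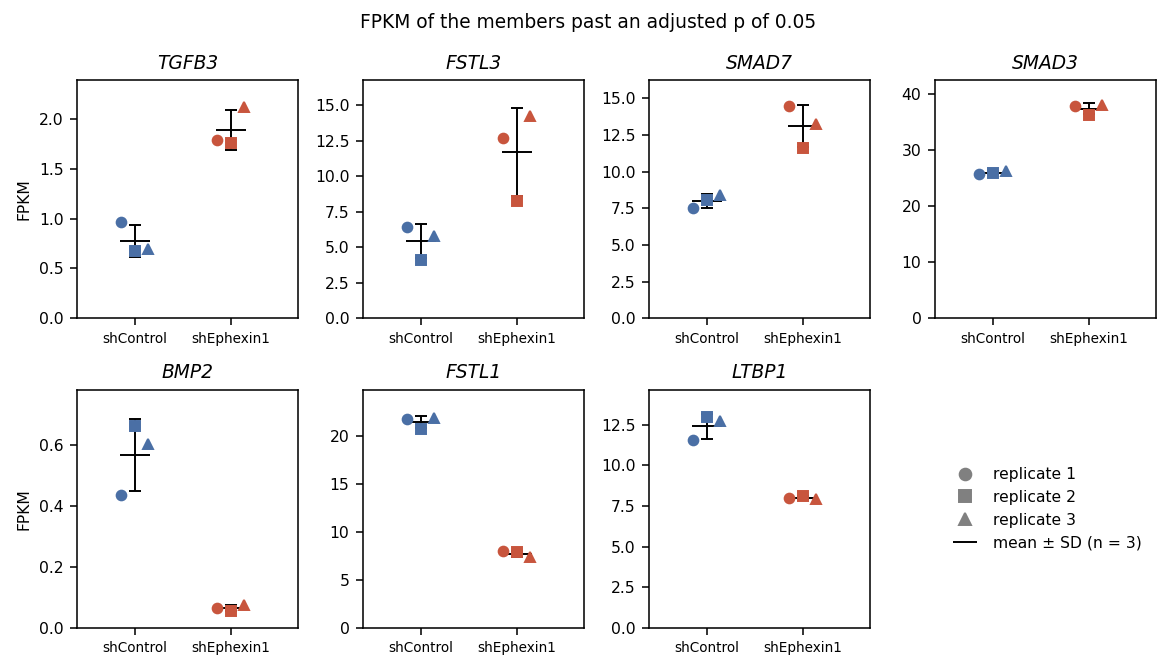
FPKM (linear axes starting at 0) of the 7 members past an adjusted p of 0.05, by group, where symbols mark replicate numbers and the bars show mean ± SD of 3 libraries. In each of the 7 panels the shControl and shEphexin1 points are fully separated, from BMP2 at 11.4% of its shControl mean to TGFB3 at 243%.

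TGF-beta ligands are made in a latent form and differ in where they are expressed. TGFB1 was by far the most abundant of the 3 isoforms, making up 91.6% to 94.5% of their summed FPKM in shControl and 92.6% to 95.3% in shEphexin1. TGFB3 had shControl values of 0.964, 0.673 and 0.692 FPKM and shEphexin1 values of 1.79, 1.76 and 2.12 FPKM. Every shEphexin1 library was thus above every shControl library, and TGFB3 rose with a log2 fold change of 1.19 ± 0.206 (SE, n = 3 per group, limma adjusted p = 0.0201). The gene spans chr14:76424440-76449354 on the minus strand of GRCh37 and overlaps IFT43 on the opposite strand, and since the strand setting of the counting is not given in the sources used here, reads of the pair may not be separable. TGFB3 lost its call without shControl replicate 1 or 3 or without shEphexin1 replicate 1 or 3 (adjusted p 0.0561, 0.0735, 0.0939 and 0.0788), and its log2 fold change was 0.70 with a pseudocount of 1 FPKM.

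TGFB1 showed 53.3, 42.9 and 57.2 FPKM across shControl and 94.2, 62.0 and 99.0 FPKM across shEphexin1. The groups did not overlap, with the lowest value of each group in replicate 2, and the log2 fold change of 0.71 ± 0.201 (SE) missed the threshold (limma, adjusted p = 0.0811). TGFB1 also lies across 3 tested genes on the opposite strand, CCDC97, HNRNPUL1 and TMEM91. TGFB2 measured 3.15, 3.26 and 2.66 FPKM in shControl against 2.86, 3.21 and 2.73 FPKM in shEphexin1, a log2 difference of -0.04 with a 95% interval of -0.40 to 0.32. NODAL, the remaining tested ligand of this group, did not exceed 0.284 FPKM in any library.

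BMPs were named for bone formation and act in many tissues. BMP2 was low in shControl, at 0.435, 0.662 and 0.603 FPKM, and lower still in shEphexin1, at 0.0640, 0.0560 and 0.0742 FPKM. The groups were far apart, and BMP2 fell to 11.4% of its shControl mean (log2 fold change -2.002 ± 0.278, SE, limma adjusted p = 0.0103). All shEphexin1 values were under the 0.1 FPKM filter, so BMP2 was tested only through shControl. A gene tested in this way could be called only as lower. Without shEphexin1 replicate 1 the adjusted p was 0.0527, and with a pseudocount of 1 FPKM in place of 0.1 FPKM the log2 fold change was -0.55. BMP2 lies at chr20:6748333-6760893 on GRCh37, plus strand.

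BMP4 and BMP6 had values on the other side of shControl. BMP4 measured 0.479, 0.488 and 0.305 FPKM in shControl against 0.796, 0.848 and 0.539 FPKM in shEphexin1, and BMP6 was at 1.53, 1.64 and 1.11 FPKM against 2.53, 2.59 and 2.07 FPKM. Neither pair of groups overlapped and neither member passed the test (log2 fold change 0.66 and 0.72, limma adjusted p = 0.203 and 0.0801). BMP2 accordingly made up 17.8%, 23.8% and 29.9% of the summed FPKM of BMP2, BMP4 and BMP6 in shControl and 1.89%, 1.60% and 2.77% in shEphexin1. That share was chosen after its values were seen and is given with no test. Of the 19 BMP and GDF ligands, 9 were tested and 1 passed, beside 7.01% of all genes tested. The groups did not overlap for 8 of these 9, 4 above and 4 below shControl, beside the 28.3% of all genes tested. The highest 3 by level were GDF11 (shControl mean 4.30 FPKM, shEphexin1 mean 2.95 FPKM), BMP6 and GDF15 (1.35 and 2.23 FPKM), and none of these passed. BMP8A and BMP8B are near-identical copies whose reads may be split between them, so their values are uncertain. BMP1, which cleaves procollagens and the BMP antagonist chordin, had means of 7.15 and 11.2 FPKM with no overlap between groups and an adjusted p of 0.0801 (limma, log2 fold change 0.63).

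**Figure D2:**
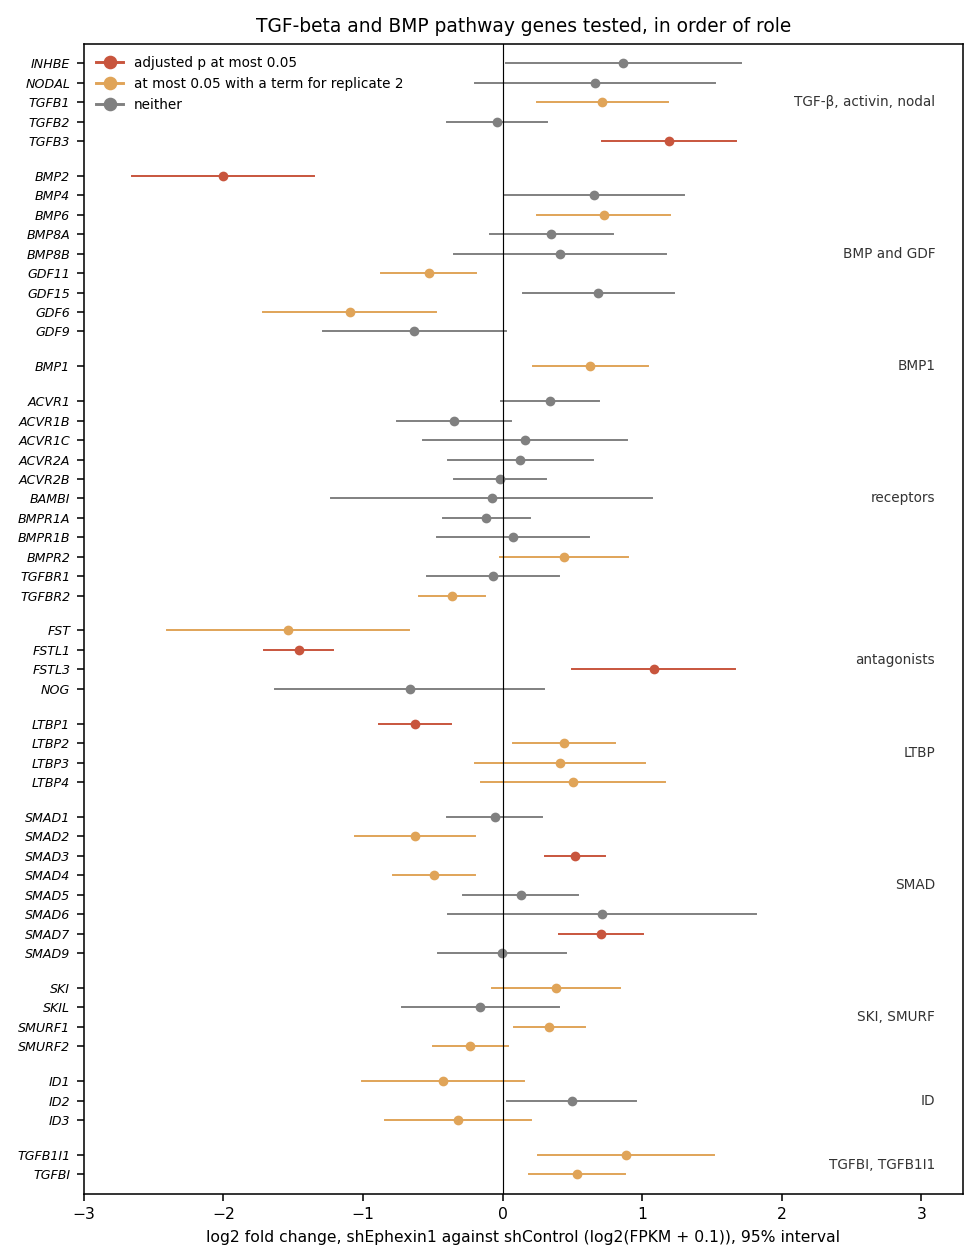
Log2 fold change (horizontal axis, shEphexin1 against shControl) with its 95% interval for the 51 members tested, grouped by role from ligands at the top to TGFBI and TGFB1I1 at the bottom. Red marks the 7 members past an adjusted p of 0.05 and orange the further members that passed when a term for replicate 2 was added, and the receptors run between -0.36 and 0.44.

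Among the receptors, 0 of 11 tested passed at an adjusted p of 0.05 with limma, 1 had an unadjusted p under 0.05 (TGFBR2) and 2 passed with a term for replicate 2 (BMPR2 and TGFBR2). Over all 16020 genes tested, 7.01% passed and 29.2% passed with that term. An unadjusted p under 0.05 was found for 1681 higher and 2056 lower genes. The receptors' log2 fold changes ran from -0.36 to 0.44 with a median of -0.020. TGFBR2, the type II receptor that binds TGF-beta, had shControl values of 22.0, 23.5 and 21.3 FPKM and shEphexin1 values of 17.0, 17.7 and 17.2 FPKM. Its groups did not overlap and were tight, yet the difference missed the threshold (log2 fold change -0.36, limma adjusted p = 0.0792). TGFBR1, the type I partner, was at 19.0, 23.6 and 15.8 FPKM against 18.4, 22.5 and 14.7 FPKM, with a log2 difference of -0.07 and a 95% interval of -0.54 to 0.40.

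Among BMP receptors, BMPR1A showed 21.3, 21.6 and 20.8 FPKM across shControl and 18.0, 23.3 and 17.9 FPKM across shEphexin1, so that the groups overlapped (log2 fold change -0.12, limma adjusted p = 0.665). BMPR2 was at 12.1, 15.3 and 9.89 FPKM against 16.0, 20.1 and 14.3 FPKM (log2 fold change 0.44, limma adjusted p = 0.230). Replicate 2 was the highest library of each group for BMPR2, and its shControl value lay above the lowest shEphexin1 value. ACVR1, a type I receptor for BMPs and activins, was at 9.45, 11.8 and 8.27 FPKM against 12.4, 12.2 and 12.6 FPKM, without overlap (log2 fold change 0.34, limma adjusted p = 0.227). BAMBI, a pseudoreceptor without a kinase domain, was near the floor at 0.126, 0.133 and 0.0775 FPKM in shControl against 0.133, 0 and 0.242 FPKM in shEphexin1.

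Follistatin and its relatives bind activins and some BMPs outside the cell, and this family held opposite changes. FSTL1, a secreted glycoprotein of the follistatin family, measured 21.8, 20.7 and 21.8 FPKM in shControl against 7.94, 7.86 and 7.37 FPKM in shEphexin1. The libraries of each group were almost level and the groups lay far apart, with FSTL1 falling to 36.0% of its shControl mean (log2 fold change -1.46 ± 0.105, SE, limma adjusted p = 0.000864). FSTL1, at chr3:120111140-120169863 on the minus strand of GRCh37, was the member with the smallest adjusted p and passed in all 20 of the alternative settings it was run under.

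FSTL3 had shControl values of 6.41, 4.08 and 5.81 FPKM and shEphexin1 values of 12.7, 8.25 and 14.2 FPKM. Replicate 2 was lowest in each group, all shEphexin1 libraries lay above all shControl libraries, and FSTL3 rose (log2 fold change 1.08 ± 0.25, SE, limma adjusted p = 0.0453). FSTL3 binds activin and myostatin, and it lies at chr19:676392-683392 on the plus strand of GRCh37. Its call was lost without any single library other than shEphexin1 replicate 2 (adjusted p 0.0932 to 0.173), and also with no filter on low values or with an untrended eBayes (0.0635 and 0.0715). The FPKM ratio of FSTL3 to FSTL1 was 0.295, 0.197 and 0.266 in shControl and 1.60, 1.05 and 1.93 in shEphexin1, a measure picked after its values were seen. FST itself was at 0.193, 0.228 and 0.332 FPKM in shControl, and in shEphexin1 it was listed at 0 in replicates 1 and 2 and at 0.0705 FPKM in replicate 3 (limma, adjusted p = 0.0523). FST was also tested only through shControl, its shEphexin1 values being under the 0.1 FPKM filter. NOG, the fourth tested gene of this group, stayed at or under 0.222 FPKM in all libraries.

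Latent TGF-beta binding proteins tether the latent ligand to the matrix. LTBP1 showed 11.5, 12.99 and 12.7 FPKM across shControl and 7.97, 8.10 and 7.93 FPKM across shEphexin1. The shEphexin1 libraries were almost equal and all below shControl, and LTBP1 fell to 64.4% of its shControl mean (log2 fold change -0.63 ± 0.111, SE, limma adjusted p = 0.0215), without a 2-fold change. It spans chr2:33172020-33624576 on the plus strand of GRCh37. The other 3 LTBPs had values in the opposite direction and did not pass: LTBP4, the most abundant, averaged 62.9 ± 15.7 FPKM in shControl against 90.8 ± 28.2 FPKM in shEphexin1 (SD over 3 libraries each), LTBP2 averaged 10.7 and 14.7 FPKM, and LTBP3 averaged 8.23 and 11.0 FPKM. As a share of the summed FPKM of the 4 LTBPs, LTBP1 ranged from 11.6% to 17.5% in shControl and from 5.27% to 9.35% in shEphexin1. That share was picked after its values were seen and is given with no test.

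SMAD3 and SMAD2 carry the TGF-beta and activin signal to the nucleus. SMAD3 measured 25.8, 26.0 and 26.3 FPKM in shControl against 37.9, 36.3 and 38.0 FPKM in shEphexin1. With little spread in either group, SMAD3 rose by less than 2-fold (log2 fold change 0.52 ± 0.0924, SE, limma adjusted p = 0.0215). SMAD2 had shControl values of 19.1, 24.4 and 18.1 FPKM and shEphexin1 values of 12.5, 16.3 and 11.0 FPKM. Its groups did not overlap, and the log2 fold change of -0.63 missed the threshold (limma, adjusted p = 0.0885). The FPKM ratio of SMAD3 to SMAD2, chosen after its values were seen, was 1.29 ± 0.201 in shControl against 2.89 ± 0.622 in shEphexin1 (SD, n = 3).

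SMAD7, the inhibitory SMAD that recruits ubiquitin ligases to the TGF-beta receptor, showed 7.50, 8.06 and 8.43 FPKM across shControl and 14.5, 11.6 and 13.3 FPKM across shEphexin1. The groups were well apart and SMAD7 rose (log2 fold change 0.70 ± 0.128, SE, limma adjusted p = 0.0235). SMAD4, the shared partner, measured 13.3, 13.6 and 11.6 FPKM in shControl against 8.98, 9.89 and 8.42 FPKM in shEphexin1, again without overlap (log2 fold change -0.49, limma adjusted p = 0.0601). SMAD7 was thus below SMAD4 in every shControl library, with FPKM ratios of 0.562, 0.594 and 0.725, and above it in every shEphexin1 library, with ratios of 1.61, 1.18 and 1.57. This ratio was picked after its values were seen and is given with no test.

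The calls of SMAD3, SMAD7 and LTBP1 were each lost when any single library other than shEphexin1 replicate 2 was left out. Without that library they passed (limma, adjusted p = 0.0246, 0.0196 and 0.0293). Without shEphexin1 replicate 1 the adjusted p was 0.128 for SMAD3, 0.126 for SMAD7 and 0.118 for LTBP1, while the log2 fold changes stayed at 0.51, 0.63 and -0.62.

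Each BMP-branch SMAD had a similar level in both groups, with SMAD5 the most abundant of them. SMAD1 had shControl values of 4.69, 6.16 and 5.59 FPKM and shEphexin1 values of 5.48, 5.17 and 5.07 FPKM (log2 difference -0.06, 95% interval -0.39 to 0.28). SMAD5 was at 17.8, 20.1 and 14.6 FPKM against 17.9, 23.2 and 16.5 FPKM (log2 difference 0.13, 95% interval -0.28 to 0.54), and SMAD9 averaged 2.07 and 2.06 FPKM. SMAD6, the other inhibitory SMAD, showed 0.707, 0.199 and 1.08 FPKM across shControl and 1.01, 0.905 and 1.02 FPKM across shEphexin1, with 1 shControl library far below the rest. In all, 2 of 8 SMADs passed, both of them higher, beside 2.69% of all genes tested that passed as higher.

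SKI and SKIL are nuclear corepressors of SMADs, and SMURF1 and SMURF2 are ubiquitin ligases that act on SMADs and receptors. SMURF1 measured 19.4, 18.2 and 20.3 FPKM in shControl against 25.5, 22.5 and 25.1 FPKM in shEphexin1, without overlap (log2 fold change 0.34, limma adjusted p = 0.117). SMURF2, the more abundant, was at 59.4, 61.7 and 54.2 FPKM against 48.6, 55.6 and 45.4 FPKM (log2 fold change -0.23, limma adjusted p = 0.281). SMURF1 overlaps TRRAP and SMURF2 overlaps CEP95, each on the opposite strand. SKI had shControl values of 7.72, 6.14 and 7.55 FPKM and shEphexin1 values of 10.7, 7.03 and 10.6 FPKM, and SKIL at 10.4, 13.2 and 8.74 FPKM against 8.43, 13.2 and 7.70 FPKM. In both genes the groups overlapped, and 0 of these 4 members passed with limma, beside 7.01% of all genes tested. Only SMURF1 had an unadjusted p under 0.05, beside 1681 higher and 2056 lower of all 16020 genes tested.

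ID proteins bind and block basic helix-loop-helix factors, and ID1 was the most abundant member of all. ID1 showed 170, 115 and 184 FPKM across shControl and 126, 82.8 and 143 FPKM across shEphexin1. ID3 was at 42.0, 28.9 and 46.5 FPKM against 33.3, 23.8 and 36.7 FPKM, the same order of libraries as ID1, with replicate 2 lowest in each group. The groups overlapped for both, and neither passed (log2 fold change -0.43 and -0.32, limma adjusted p = 0.363 and 0.454). ID2 measured 3.18, 2.94 and 4.48 FPKM in shControl against 4.85, 5.69 and 4.34 FPKM in shEphexin1 (log2 fold change 0.49, limma adjusted p = 0.191). ID4 did not exceed 0.0955 FPKM in any library and was not tested.

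TGFBI, a matrix protein named for its induction by TGF-beta, had shControl values of 3.20, 2.87 and 2.92 FPKM and shEphexin1 values of 4.15, 4.06 and 5.00 FPKM, and TGFB1I1, a focal adhesion scaffold, averaged 0.547 and 1.08 FPKM. Neither gene's groups overlapped, and neither passed the test (log2 fold change 0.54 and 0.89, limma adjusted p = 0.0744 and 0.0994).

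Many members shared an offset of replicate 2 in both groups, which widened the spread within groups. The labels tie no replicate number to a batch or culture, so a term for replicate 2 rests on the pattern in these same data. The adjusted p-values it gives depend on that choice. When both replicate 2 libraries were given a shared term in the model, which in this balanced design leaves every fold change as it was by construction, 27 of 51 members passed at an adjusted p of 0.05 (52.9%), 15 higher and 12 lower, beside 29.2% of all genes tested. TGFB1 then had an adjusted p of 0.000554, LTBP4 of 0.00259, ID1 of 0.00318, ID3 of 0.012, TGFBR2 of 0.00467, SMAD2 of 0.00115 and SMURF1 of 0.00592 (limma). In TGFB1, LTBP4, ID1, ID3 and SMURF1 the replicate 2 library was the lowest of its group in both groups. In TGFBR2 and SMAD2 that library was the highest. Between the replicate 2 libraries of these genes, shEphexin1 lay on the same side of shControl as between the group means. Replicates 1 and 3 alone gave log2 fold changes of 0.81 for TGFB1, 0.58 for LTBP4 and -0.40 for ID1 (limma, adjusted p = 0.00339, 0.0111 and 0.0294), and -0.34 for ID3 (adjusted p = 0.0526). The median GC content was 52.7% over the members tested and 49.9% over all genes tested with an annotated sequence.

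**Figure D3:**
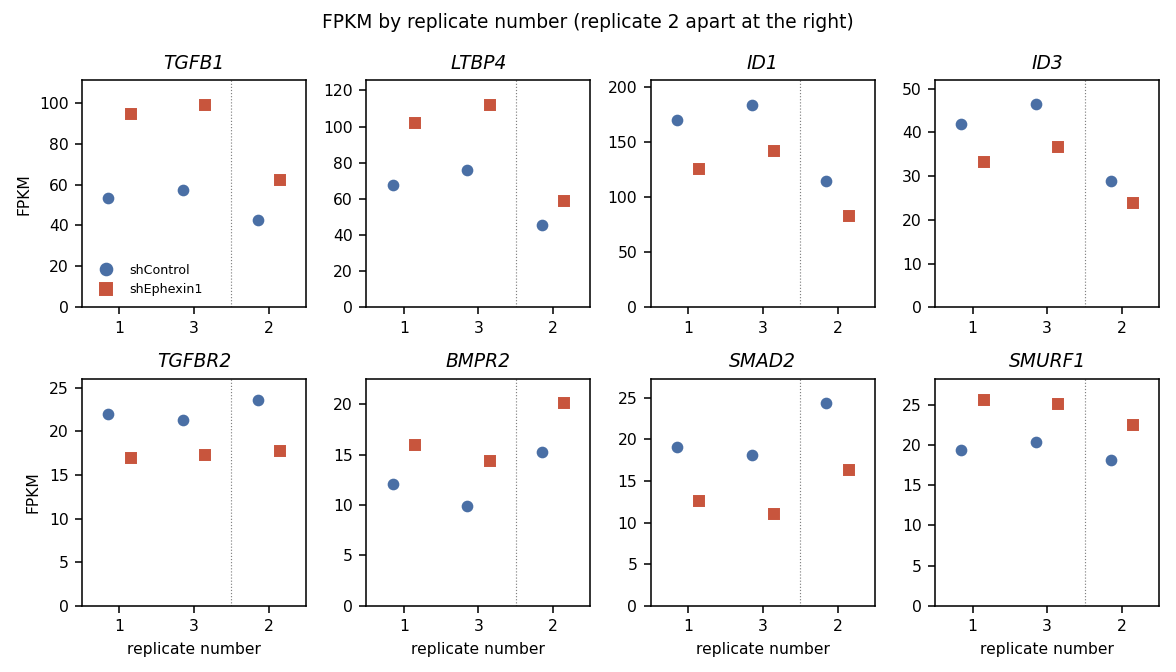
FPKM (vertical axes starting at 0) by replicate number for TGFB1, LTBP4, ID1, ID3, TGFBR2, BMPR2, SMAD2 and SMURF1, where circles are shControl, squares are shEphexin1, and the replicate 2 libraries are set apart at the right. TGFB1, LTBP4, ID1, ID3 and SMURF1 are lowest in replicate 2 of both groups, and SMAD2, BMPR2 and TGFBR2 are highest there. Between the replicate 2 libraries shEphexin1 is on the same side of shControl as between the group means.

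SMAD2, SMAD4 and SMAD7 lie close together on chromosome 18, at chr18:45335328-45457517, chr18:48554898-48611415 and chr18:46446223-46477335 on GRCh37. The genes within 10 Mb of them with a mean of at least 1 FPKM had median log2 fold changes of -0.49 around SMAD2 (37 genes), -0.47 around SMAD4 (43 genes) and -0.51 around SMAD7 (39 genes). SMAD2 and SMAD4 were therefore close to the genes around them, and SMAD7 was not. The windows of these neighbouring genes overlap and hold one another, so their medians are not separate backgrounds. The median around SMAD2 is the log2 fold change of SMAD4 itself. With the neighbourhood median taken off in each library, the log2 fold change was -0.16 for SMAD2, -0.03 for SMAD4 and 1.18 for SMAD7 (limma, adjusted p = 0.451, 0.850 and 0.00627). Around SMURF1 on chromosome 7 the median was 0.28, and around SMURF2 on chromosome 17 it was -0.37. Relative to their neighbourhoods, SMURF1 had a log2 fold change of 0.07 and SMURF2 of 0.21, the latter opposite in sign to its uncorrected value.

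The other calls kept their direction and passed in the same corrected fit. Neighbourhood medians were between -0.02 and 0.05 for TGFB3, FSTL3, SMAD3, LTBP1 and FSTL1, and -0.40 for BMP2, whose corrected log2 fold change was -1.64 (limma, adjusted p = 0.0147). TGFB1 and TGFB1I1 also passed there, at 0.68 and 0.96 (limma, adjusted p = 0.00556 and 0.0281).

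Other genes of the pathway, taken from 7 lists that are not part of the set above, gave 18 of 130 genes past an adjusted p of 0.05 (13.8%), beside 7.01% of all genes tested. Of these, 9 were higher and 9 lower, and the median log2 fold change over the 130 genes was 0.07. With the term for replicate 2, 30 were higher and 17 lower, beside 29.2% of all genes tested. The lists were chosen with earlier results of these data known, so these shares are no independent comparison. With limma, 0 of 5 coreceptors and further ligands, 0 of 8 other antagonists and 0 of 23 SMAD transcription partners passed, and 0, 3 and 6 of them had an unadjusted p under 0.05. Over all 16020 genes tested, 1681 higher and 2056 lower genes were under that unadjusted p. With the term for replicate 2, 0 coreceptors and further ligands passed, 2 antagonists were lower, and 7 SMAD partners were higher and 2 lower. Latent TGF-beta activation and matrix storage genes had 3 of 15 higher and 0 lower, beside 2.69% and 4.32% of all genes tested. The 3 higher genes were PLAU, MMP9 and MMP14, of which PLAU and MMP14 are named here after their values were seen. MMP9, a protease able to release latent TGF-beta, showed 0.188, 0.0828 and 0.0621 FPKM across shControl and 0.754, 0.493 and 0.907 FPKM across shEphexin1 (log2 fold change 1.97, limma adjusted p = 0.0205), and leaving out any single library other than shEphexin1 replicate 2 took its adjusted p to 0.0508 or above.

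Intracellular regulators had 2 of 33 higher and 3 lower, beside 2.69% and 4.32% of all genes tested. Of these 5 calls, only that of DAB2 held in the fit with the neighbourhood correction. The other 4, named after their values were seen, went from log2 fold changes of 0.67 to 0.14 for CAV1, 0.47 to 0.10 for HIPK2, -0.51 to -0.15 for FKBP1A and -0.77 to -0.37 for STRAP (limma, adjusted p = 0.362, 0.491, 0.243 and 0.0604 after correction). DAB2, an endocytic adaptor that links TGF-beta receptors to SMADs, was at 1.02, 0.692 and 1.14 FPKM in shControl, and in shEphexin1 it was at 0.0201 FPKM, listed at 0 and at 0.0244 FPKM. DAB2 fell with a log2 fold change of -3.18 ± 0.296 (SE, limma adjusted p = 0.00243). Its shEphexin1 values were all under the 0.1 FPKM filter. DAB2 was thus tested only through shControl and could be called only as lower. The size of its log2 fold change depended on the pseudocount, from -5.43 with 0.01 FPKM to -0.94 with 1 FPKM.

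TGF-beta target genes had 4 of 41 higher and 3 lower, beside 2.69% and 4.32% of all genes tested. The median log2 fold change over this list was 0.20. CTGF, a matricellular growth factor induced by SMAD3 and by YAP, measured 14.7, 13.8 and 13.2 FPKM in shControl against 29.5, 28.9 and 27.7 FPKM in shEphexin1, and rose (log2 fold change 1.04 ± 0.103, SE, limma adjusted p = 0.00296). ADAM12 and TNC, a metalloprotease and a matrix glycoprotein, fell from means of 1.096 and 0.587 FPKM, with 2 shEphexin1 libraries of each listed at 0 and the remaining library at 0.0330 and 0.0124 FPKM (limma, adjusted p = 0.00112 and 0.00323). With every shEphexin1 value under the 0.1 FPKM filter, both were tested only through shControl and could be called only as lower. PLAUR and BHLHE40, named after their values were seen, also rose (log2 fold change 0.77 and 0.94, limma adjusted p = 0.0429 and 0.0362). The list's calls thus went in both directions, while 30 of its log2 fold changes were above 0 and 11 below. Over all genes tested, 7835 were above 0 and 8185 below. With the neighbourhood correction, 2 of the 7 calls were lost, those of CYR61 (log2 fold change 0.58 before and 0.57 after, adjusted p = 0.0516) and PTHLH (-0.93 before and -0.36 after, adjusted p = 0.349), both named after their values were seen.

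BMP target genes outside the set had 0 of 13 higher and 3 lower, beside 2.69% and 4.32% of all genes tested. The median log2 fold change over this list was -0.0013. MSX1, a homeobox factor, had shControl values of 1.06, 0.831 and 1.20 FPKM and shEphexin1 values of 0.291, 0.239 and 0.362 FPKM, and fell (log2 fold change -1.50 ± 0.244, SE, limma adjusted p = 0.0170). That call was lost without shControl replicate 1 or 3 or shEphexin1 replicate 1 (adjusted p 0.0959, 0.0710 and 0.0825). HEY1 and GATA3, named after their values were seen, had log2 fold changes of -0.74 and -1.37 (limma, adjusted p = 0.0408 and 0.0352). In shEphexin1 GATA3 was under the 0.1 FPKM filter in every library. GATA3 was thus tested only through shControl and could be called only as lower. With the neighbourhood correction HEY1 no longer passed (log2 fold change -0.49, adjusted p = 0.114), and GATA3 did (-1.29, adjusted p = 0.0336).

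Promoter sequence was read for the called members to show where the letters CAGAC, the core of the SMAD-binding element, stand upstream of their starts. BMP2 had no entry among the promoters used and was left out. The windows are the 250 bases before an annotated start in RefSeq on GRCh38.p14, and CAGAC or its reverse complement GTCTG occurs in 38.0% of 35116 such windows. The windows of SMAD7 (chr18:48950966-48951215, minus strand), TGFB3 (chr14:75983012-75983261, minus strand) and LTBP1 (chr2:32946703-32946952, plus strand) each hold it at 2 places, were picked after the matches were counted, and are shown 5′ to 3′, with those letters in capitals.
SMAD7: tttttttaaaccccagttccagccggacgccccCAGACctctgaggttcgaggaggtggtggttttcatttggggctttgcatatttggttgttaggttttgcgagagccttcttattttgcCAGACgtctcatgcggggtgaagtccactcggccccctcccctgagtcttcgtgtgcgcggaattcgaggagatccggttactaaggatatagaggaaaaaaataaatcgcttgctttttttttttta
TGFB3: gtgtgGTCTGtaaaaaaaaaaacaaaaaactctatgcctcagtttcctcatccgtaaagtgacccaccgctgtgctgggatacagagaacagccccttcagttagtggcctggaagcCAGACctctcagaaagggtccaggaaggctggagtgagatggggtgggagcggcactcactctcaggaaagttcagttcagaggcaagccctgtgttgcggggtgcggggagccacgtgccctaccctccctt
LTBP1: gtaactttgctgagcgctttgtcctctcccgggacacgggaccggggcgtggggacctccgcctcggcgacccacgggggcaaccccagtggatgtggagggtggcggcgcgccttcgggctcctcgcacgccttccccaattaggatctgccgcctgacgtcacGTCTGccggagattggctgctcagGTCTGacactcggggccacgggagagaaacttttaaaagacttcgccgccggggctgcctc
The single windows of FSTL1 and FSTL3 hold it at 0 places, as do 3 of the 5 windows of SMAD3, whose other windows hold it at 1 and 3 places. Another start of TGFB3 has 0 matches, the other starts of SMAD7 have 1 and 0, and those of LTBP1 have 1 each.
The palindrome GTCTAGAC, in 0.182% of all windows, is in none of these 3 windows. The letters GGCGCC, also searched, occur in 16.4% of all windows and in none of these 3. They stand at 2 places in the FSTL1 window, 1 in that of FSTL3 and 2 in 1 SMAD3 window. SMAD7 and TGFB3 rose and LTBP1 fell, so the letters CAGAC were found beside changes in both directions. A match in a window describes the letters only and is no measurement of SMAD binding.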

How the data were processed

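Messenger RNA of 3 shControl and 3 shEphexin1 H1299 libraries was analysed. The libraries were made from TRIzol-extracted total RNA with a TruSeq stranded kit. The authors mapped reads to GRCh37/hg19 with TopHat 2.0.13 and calculated the deposited FPKM values per gene and library with Cuffdiff (Cufflinks 2.2.1), with libraries normalized geometrically and dispersion pooled. The annotation and strand setting are not given in the sources used here. Reads and depth are unknown, so no counting error is given. The labels name a neo vector and the study's methods a hygro vector.

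Libraries were grouped by their titles. A gene was tested when 3 or more of the 6 libraries reached 0.1 FPKM. Values entered limma 3.58.1 under R 4.3.3 as log2(FPKM + 0.1), lmFit was followed by a trended eBayes, and p-values were adjusted by Benjamini-Hochberg over the 16020 genes tested. Of 26253 names, 23759 were matched to GENCODE 44 on GRCh37, 1337 through older symbols. The neighbourhood correction took off, in each library, the median deviation of genes within 10 Mb. Promoters came from RefSeq on GRCh38.p14. Python 3.11.15, pandas 2.3.3 and matplotlib 3.10.9 were used. The members and lists were chosen with earlier results of these data known. Values were given per library for members that passed either threshold and for core pathway genes, and other genes were named by the strict threshold. The alternatives were other pseudocounts, filters, normalizations and eBayes settings, terms for replicates, GC and length correction, and leaving out libraries. The procedure was tested on simulated data.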

Additional observations from a re-analysis of the deposited data

How the results depend on the processing

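The strict call (adjusted p of at most 0.025 and at least 2-fold) covered 3 members and the call at any fold (adjusted p of at most 0.05) covered 7. The strict count was 1 with a pseudocount of 1 FPKM, 6 with a replicate block, and 5 each with a term for replicate 2, with GC and length correction, with that correction and the replicate block, and with the neighbourhood correction, and it ranged from 1 to 3 when single libraries were left out. The count at any fold was 27 with the replicate block and with the term for replicate 2, 19 with replicates 1 and 3 alone, 24 with GC and length correction, 30 with that correction and the replicate block, and 1 to 12 when single libraries were left out. It was 1 without shEphexin1 replicate 1, where FSTL1 alone passed, and 12 without shEphexin1 replicate 2. Over all genes tested, the share at any fold was 7.01% in the main fit and 29.2% with the term for replicate 2. The other settings have no such share here, so a higher count under them is not read as a result about the members. Same-numbered libraries deviated together with correlations of 0.0914, 0.430 and 0.328, and each library correlated best with its own number. Since the correlation of replicates 1 was under 0.1 and the labels tie no number to a batch or culture, the numbers were not taken to pair the libraries in the main fit. The replicate block and the term for replicate 2 do tie same-numbered libraries, the latter on a pattern seen in these data. Of the single-gene values under the alternatives, 610 kept their direction and side of the threshold, 71 newly passed, 35 no longer passed and 16 reversed. The reversed values all belonged to members that did not pass. BAMBI was at 0.011 with a pseudocount of 1 FPKM, 0.49 with replicates 1 and 3 alone and -0.47 to 0.42 with single libraries left out. SMAD1 was at 0.040 with replicates 1 and 3 alone, 0.046 with GC and length correction with or without the replicate block, and -0.16 to 0.031 with single libraries left out. Leaving out single libraries gave -0.015 to 0.24 for SMAD5, -0.13 to 0.014 for TGFB2 and -0.22 to 0.083 for TGFBR1. With the neighbourhood correction BMPR1A was at 0.12, SMAD5 at -0.058, SMURF2 at 0.21 and TGFBR1 at 0.24. The cause of these differences was not tested, and depth limits are unknown because no read counts were used.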
